A study of Mus musculus with 6 samples.

Results

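The matrix metalloproteinases (Mmp), the related Adamts proteases, the Adamts-like proteins (Adamtsl) and the tissue inhibitors of metalloproteinases (Timp) were followed in the prostates of mice with hormone-induced benign prostatic hyperplasia. Members were taken by gene symbol alone, and 51 of the 34745 genes in the deposited table belonged to these families, namely 23 Mmp, 19 Adamts, 5 Adamtsl and 4 Timp genes. All mice were C57BL/6 males, 6 to 8 weeks old at the start. The 3 mice of the T + E2 group carried 1 slow-release pellet of testosterone and oestradiol (10 parts to 1) under the skin for 12 weeks, with a new pellet each month, and the 3 mice of the CON group received the same skin incision without a pellet. Each library came from the prostate tissue of 1 mouse, and these mice were used for sequencing only. No cell type was isolated, so each value is an average over epithelium, stroma, vessels and blood cells.

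Mmps are zinc proteases that are secreted or held at the cell surface as inactive precursors and, once activated, cut collagens, proteoglycans, other matrix proteins and many surface proteins. Adamts proteases carry thrombospondin repeats that bind them to the matrix, and their best known substrates are proteoglycans, procollagens and von Willebrand factor. The Adamts-like proteins share these repeats but lack the protease domain. Timps bind the active site of Mmps and of some Adamts proteases, so that the proteolysis in a tissue depends on proteases and inhibitors together.

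The libraries held 14816146 to 16555549 counts. Counts were compared by edgeR's quasi-likelihood test over 15580 genes with Benjamini-Hochberg adjustment, and genes with an adjusted p under 0.05 whose log2 fold change exceeded 1 in either direction were called DEGs. Levels are given as FPKM, which are scaled to gene length and can be compared between genes, and log2 fold changes above 0 stand for a higher level with the hormones. Markers of prostate epithelium were high in every library, with 3126 to 3459 summed counts scaled to library size (CPM) over 5 luminal markers. CON replicate 2 also held transcripts of the seminal vesicle, a gland that lies against the prostate, with 76732 counts of Svs5 against 17 and 5 in CON replicates 1 and 3. T + E2 replicate 2 held 1799 counts of Svs5 and 7949 of Svs2, and the other T + E2 libraries 12 and 6 of Svs5. The fat markers were also highest in CON replicate 2, at 80.6 summed CPM against 6.1 to 19.1 in the other libraries. Adipoq and Plin1, the 2 that could be tested, had log2 fold changes of -1.58 and -1.98 (adjusted p = 0.138 and 0.0926 by edgeR). The groups overlapped for both. Neither was called by edgeR or limma, both had an unadjusted p under 0.05, and 1 was called lower by DESeq2. Lep had 3, 10 and 6 counts in the CON libraries and 0 in each T + E2 library. Basal epithelial markers summed to 89.5 to 151.3 CPM in the CON libraries and 123.8 to 171.2 CPM in the T + E2 libraries, with 1 of 3 called higher by edgeR. B and plasma cell markers summed to 22.5 to 99.1 and 72.2 to 149.8 CPM in the same order, with 0 of 3 called by edgeR, 1 at an unadjusted p under 0.05, 1 called higher by DESeq2, 1 by limma on log2(FPKM + 1) and 0 by limma on log2(FPKM + 0.1). Skeletal muscle markers summed to 66.0 to 242.6 and 83.2 to 173.0 CPM, with 0 of 3 called by edgeR, DESeq2 or limma and 0 at an unadjusted p under 0.05. Because of the seminal vesicle transcripts, results are also given without those 2 libraries where that changed a call or moved the log2 fold change of a called gene strongly.

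Of the 51 members, 38 had enough counts to be tested, 9 had too few, and 4 (Mmp1a, Mmp1b, Mmp10 and Adamts13) had no count in any library. In the T + E2 group 6 members were lower and 1 was higher by edgeR's test with an adjusted p under 0.05. The lower members were Mmp2, Mmp7, Mmp20, Mmp24, Adamtsl3 and Adamtsl4, and the higher member was Timp4. These 6 make up 15.8% of the tested members, whereas 9.25% of all tested genes were lower. The 1 higher member makes up 2.63%, against 10.4% of all tested genes. DEGs were Mmp7, Mmp20, Mmp24 and Adamtsl3, all downregulated, or 10.5% of the tested members against 3.38% of all genes. No member was an upregulated DEG, as against 4.27% of all tested genes, and none would be at an unadjusted p under 0.05 or by DESeq2 or limma. All 3 T + E2 samples lay below all 3 CON samples for 11 of the 38 tested members (28.9%) and above them for 4 (10.5%), where the shares over all tested genes were 20.7% and 20%. The median log2 fold change was -0.08 over the tested members and -0.002 over all tested genes. The families were not alike in this, with a median of -0.54 over 14 tested Mmps, 0.25 over 15 Adamts, -0.26 over 5 Adamtsl and 0.22 over 4 Timps. These shares and medians describe the members, and no test of the families against other genes was made. The number of downregulated DEGs among the members was 2 without both libraries that held seminal vesicle transcripts, where those of all genes also dropped, from 526 of 15580 to 298 of 15646, and it ranged from 2 to 4 when each library was left out in turn.

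**Figure D1:**
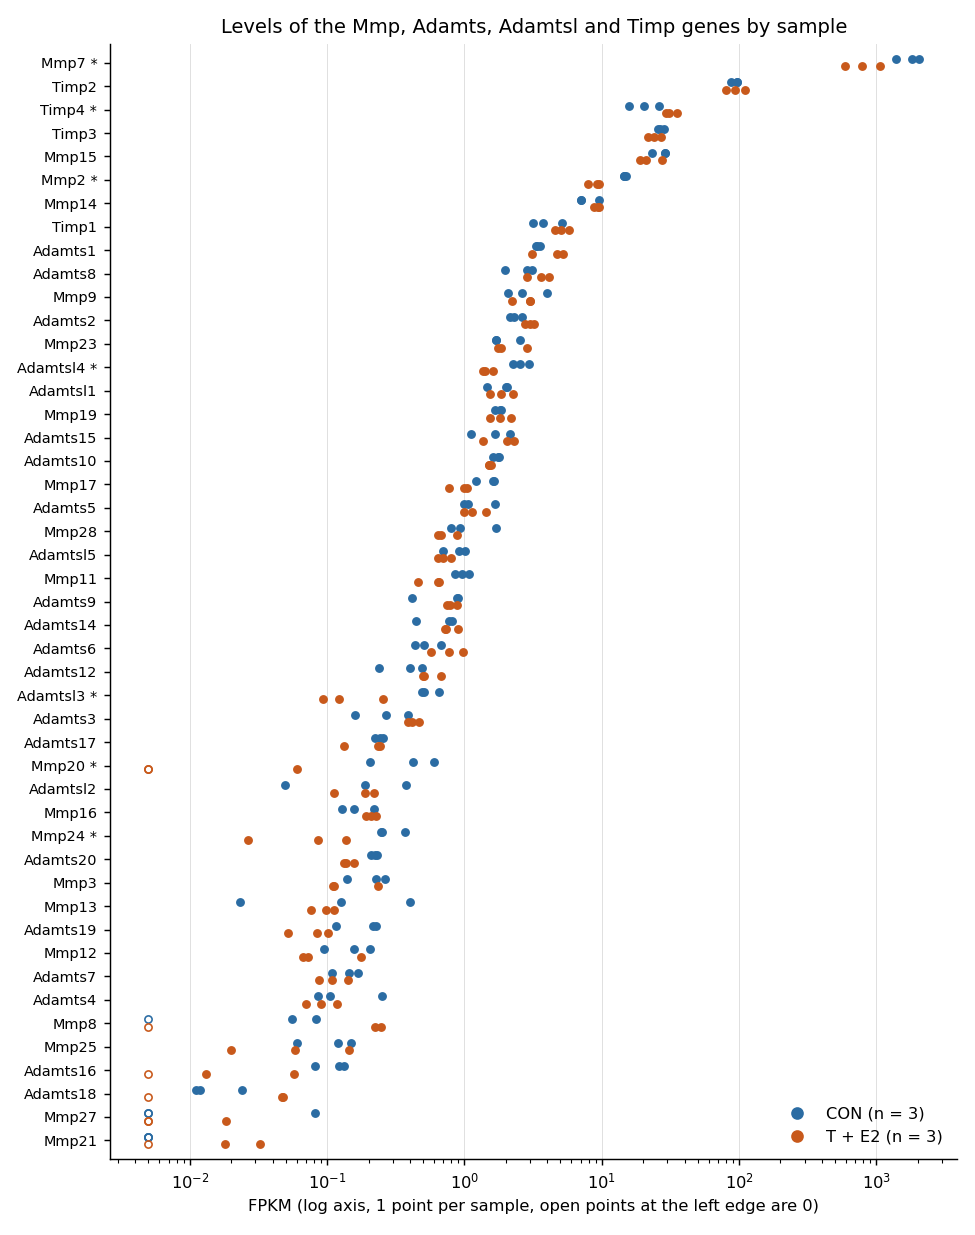
FPKM of the 47 members with at least 1 count, on a log axis, with 1 point per sample (CON blue, T + E2 orange) and genes ordered by their mean level. Stars mark genes with an adjusted p under 0.05 by edgeR, and the levels run from Mmp7, at 593 to 2037 FPKM, down to genes listed at 0 in some samples.

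**Figure D2:**
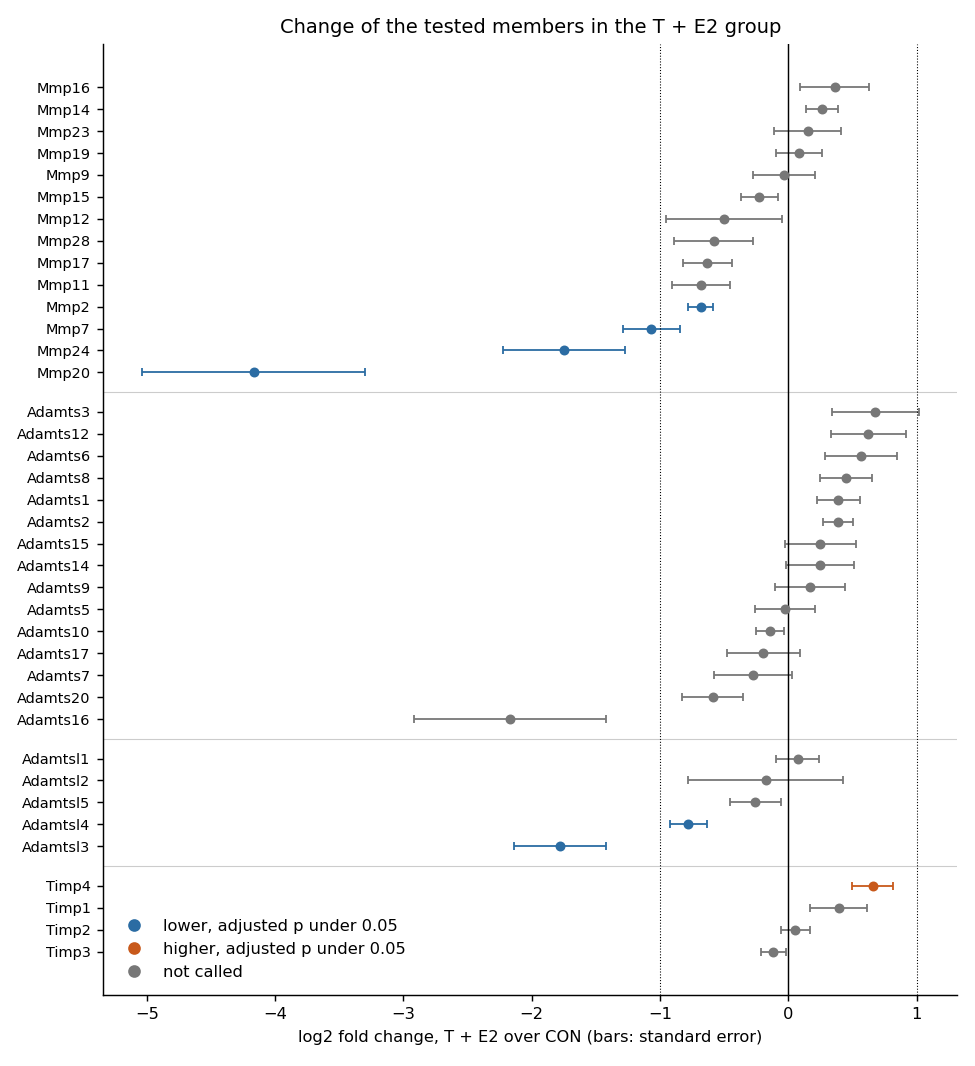
Log2 fold change of the 38 tested members, T + E2 over CON, by family, with points for the estimate, bars for the standard error from edgeR and dotted lines at -1 and 1. The called genes are coloured, 6 lower (blue) and 1 higher (orange), and the changes run from -4.17 for Mmp20 to 0.68 for Adamts3, which was not called.

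Matrilysin, encoded by Mmp7 (chromosome 9 of GRCm38, 7692090 to 7699585), is a small secreted protease of glandular epithelia that lacks the hemopexin domain of most other Mmps and also processes antimicrobial peptides and surface proteins. It was by far the most abundant member. Its level was 2037, 1393 and 1804 FPKM in the CON samples and 593, 1067 and 782 FPKM in the T + E2 samples. Every T + E2 sample lay below every CON sample, and the nearest pair were T + E2 replicate 2 and CON replicate 2, the libraries with seminal vesicle transcripts. Among all genes Mmp7 ranked 23 by mean FPKM in the CON group and 46 with the hormones. The mean fell from 1745 ± 326 to 814 ± 238 FPKM (SD, n = 3 in each group), and the log2 fold change was -1.07 with a standard error of 0.22 (adjusted p = 0.0129 by edgeR), or 2.10-fold lower. Without both libraries that held seminal vesicle transcripts the log2 fold change was -1.45 (adjusted p = 0.00602 by edgeR). It stayed under the adjusted p of 0.05 in each of the 6 fits that left out 1 library, but missed the fold change of a DEG without CON replicate 1 (-0.95) and without T + E2 replicate 1 (-0.90). In whole tissue, fewer cells of a type and less RNA per cell cannot be told apart. Among 4 secretory products of the prostate, Pbsn and Tgm4 were lower like Mmp7, whereas Msmb and Spink1 were higher, all by edgeR. Together they summed to 37394 to 50414 CPM in the CON group and 15013 to 16813 CPM in the T + E2 group. None of the 4 markers was at 0 in any library. The 5 luminal markers summed to 3126 to 3459 CPM in the CON group and 3250 to 3345 CPM in the T + E2 group, with Epcam higher (log2 fold change 1.18) and Krt18 lower (-0.54) by edgeR. The part of these markers in the change of Mmp7 was not tested.

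Mmp7 stands at one end of a row of 10 Mmp genes on chromosome 9 that spans 427 kb and holds Mmp13, Mmp12, Mmp1b, Mmp3, Mmp1a, Mmp10, Mmp8, Mmp27, Mmp20 and Mmp7 in this order. Only 1 other gene of the table starts within it. Only 3 of the 10 had enough counts for the test, and next to Mmp7, at a mean of 1745 FPKM in the CON group, no other gene of the row had a mean above 0.407 FPKM. Mmp20 (chromosome 9, 7628231 to 7674968) is its nearest neighbour, with 17.1 kb between them. Mmp20 encodes enamelysin, known as the protease of developing tooth enamel. Its counts were 29, 10 and 22 in the CON libraries and 3, 0 and 0 in the T + E2 libraries, or 0.597, 0.206 and 0.419 FPKM against 0.0605, 0 and 0. The gene was thus at or under the detection limit of 3 counts in every T + E2 library, and low in the CON libraries as well. Over all libraries 61 counts stood against 3, a ratio of 20.2 after scaling for depth, with an exact 95% interval of 6.58 to 100.5 that covers counting error only. The test gave an adjusted p of 0.0135 by edgeR, and its fitted log2 fold change of -4.17 depends on the prior count at such low counts. Without T + E2 replicate 2 it was 0.0531, and without both libraries with seminal vesicle transcripts 0.0437. Mmp12, at 0.152 ± 0.0545 FPKM in the CON group and 0.105 ± 0.0615 FPKM with the hormones (SD, n = 3 in each), was not called (log2 fold change -0.50, standard error 0.45, adjusted p = 0.469 by edgeR). Mmp12 encodes the elastase of macrophages. The 6 macrophage markers summed to 155 to 210 CPM in the CON group and 235 to 351 CPM in the T + E2 group, with C1qa, C1qb and Mrc1 higher by edgeR and none at 0, and their part in the level of Mmp12 was not tested. Parts of the Mmp12 transcript are 90.1 to 91.2% identical to other transcripts over 525 to 819 bases, so its few counts may be shared.

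**Figure D3:**
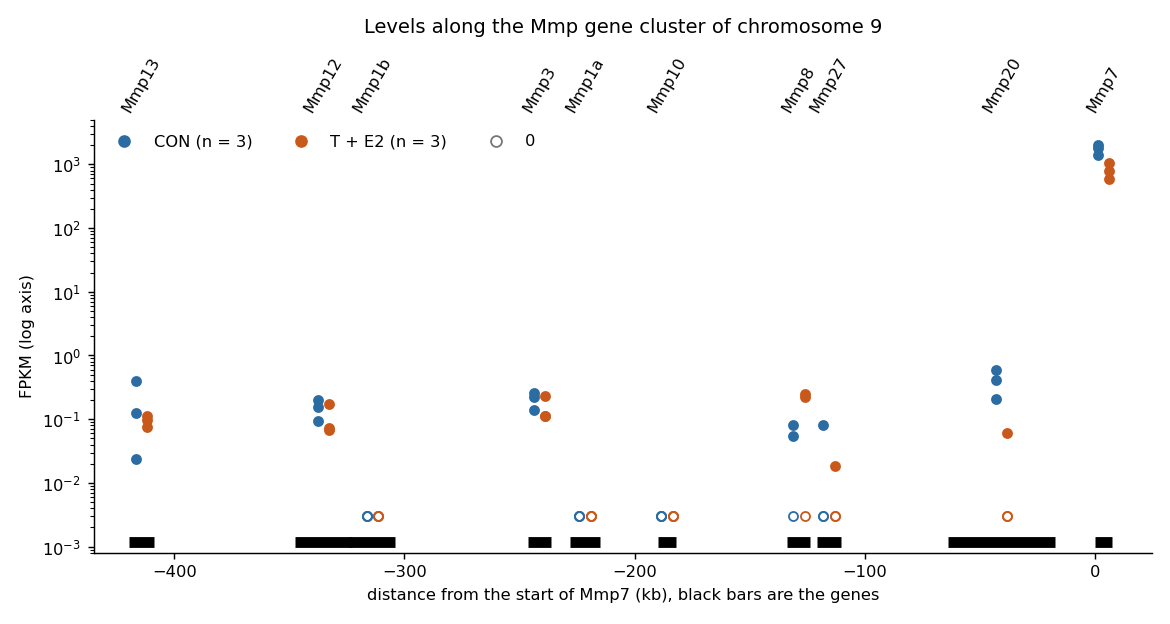
FPKM of the 10 Mmp genes of the chromosome 9 row (log axis, 1 point per sample, CON blue and T + E2 orange, open points at 0) against the distance of the gene from the start of Mmp7 in kb. Mmp7 at the right end stands at 593 to 2037 FPKM, its neighbour Mmp20 at 0 to 0.597, and Mmp1a, Mmp1b and Mmp10 at 0 in all 6 samples.

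The promoters of this row are shown because its genes lie side by side, and because both called genes of the row were lower. RefSeq promoters on GRCm38.p6 were found for 36 members, including all 10 genes of the row and 6 of the 7 called members. The 250 bases before the start of each gene were searched on both strands for the AP-1 site TGAGTCA, to which Fos and Jun proteins bind and which is well known from Mmp promoters, for the TATA box TATAAA and for the androgen receptor half-site TGTTCT. None of these matches overlapped another in the promoters printed here. For each member 1 promoter was taken, the one nearest its deposited start, whereas every listed promoter counted among all promoters, so the shares were not built alike. The members without a promoter all lie outside the row. The AP-1 letters were in 6 of the 36 member promoters (16.7%), against 4.46% of all 32851 promoters. All 6 were in the chromosome 9 row (Mmp1a, Mmp1b, Mmp3, Mmp7, Mmp10 and Mmp13). The TATA letters were in 10 of 36 (27.8%) against 12.4% of all promoters, and 7 of these 10 were in the row. The half-site was in 3 of 36 (8.33%) against 16.1%, with 1 in the row, that of Mmp10. Of the 6 called members with a promoter, 1 carried the AP-1 letters (Mmp7), 2 the TATA letters (Mmp7 and Mmp20) and 0 the half-site. In the sequences below, all on the plus strand and written 5′ to 3′, capitals mark the AP-1 and TATA letters. The first 2 are the called neighbours, Mmp7 (chr9:7691840-7692089) and Mmp20 (chr9:7627981-7628230), and the others are Mmp3 (chr9:7445572-7445821) and Mmp13 (chr9:7272264-7272513), which carry the same letters.
Mmp7: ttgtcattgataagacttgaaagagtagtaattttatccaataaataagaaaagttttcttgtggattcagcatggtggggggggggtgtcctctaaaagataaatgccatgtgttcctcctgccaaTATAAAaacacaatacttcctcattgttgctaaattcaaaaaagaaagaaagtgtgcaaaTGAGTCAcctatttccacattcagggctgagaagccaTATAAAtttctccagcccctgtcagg
Mmp20: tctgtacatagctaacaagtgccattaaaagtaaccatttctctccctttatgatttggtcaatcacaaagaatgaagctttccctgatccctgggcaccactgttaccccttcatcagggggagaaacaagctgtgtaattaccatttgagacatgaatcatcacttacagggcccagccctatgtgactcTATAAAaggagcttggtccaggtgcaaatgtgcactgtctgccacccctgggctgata
Mmp3: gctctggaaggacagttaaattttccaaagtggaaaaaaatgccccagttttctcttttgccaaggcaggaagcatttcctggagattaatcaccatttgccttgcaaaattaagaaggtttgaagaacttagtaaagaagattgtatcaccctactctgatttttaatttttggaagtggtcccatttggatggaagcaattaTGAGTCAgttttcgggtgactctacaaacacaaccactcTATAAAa
Mmp13: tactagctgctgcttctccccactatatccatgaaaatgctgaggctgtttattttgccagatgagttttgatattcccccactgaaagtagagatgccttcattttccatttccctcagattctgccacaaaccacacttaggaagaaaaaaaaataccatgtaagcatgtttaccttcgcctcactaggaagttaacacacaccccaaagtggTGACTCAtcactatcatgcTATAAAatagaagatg
In Mmp7 the AP-1 letters lie 63 to 57 bases before the start and TATA letters 26 to 21 bases before it, with a further TATA match 123 to 118 bases before it. Mmp3 has the AP-1 letters at 46 to 40 and TATA letters at 7 to 2 bases before the start. Mmp13 carries AP-1 letters on the other strand, as TGACTCA, at 35 to 29, and TATA letters at 16 to 11. Mmp20 has TATA letters at 58 to 53 bases and no AP-1 letters in this window. Genes with the same AP-1 letters stood at very different levels, Mmp7 at a mean of 1745 FPKM in the CON group, Mmp3 at 0.209 FPKM, and Mmp1a, Mmp1b and Mmp10 without counts. These matches describe the sequence, and no binding was measured.

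The gelatinases Mmp2 and Mmp9 digest denatured collagen and basement membrane collagen, and Mmp2 is typically made by stromal cells. Mmp2 (chromosome 8, 92827328 to 92853417) had 14.6, 14.9 and 14.5 FPKM in the CON samples and 9.16, 7.95 and 9.60 FPKM in the T + E2 samples. The CON samples were close together, and all T + E2 samples were lower. The mean fell from 14.7 ± 0.217 to 8.90 ± 0.851 FPKM (SD, n = 3 in each group), and the log2 fold change was -0.68 with a standard error of 0.10 (adjusted p = 0.00264 by edgeR), the smallest adjusted p of any member. The change did not reach the fold change of a DEG. Mmp2 stayed under the adjusted p of 0.05 in each of the 15 alternatives, with log2 fold changes of -0.73 to -0.60. Of the 6 fibroblast markers 0 were called by edgeR, DESeq2 or limma, 0 had an unadjusted p under 0.05 and none was at 0, and their sum was 1602 to 1730 CPM in the CON group and 1675 to 2030 CPM in the T + E2 group. Smooth muscle markers summed to 3984 to 4905 CPM in the CON group and 3479 to 3805 CPM in the T + E2 group, with Acta2 and Des lower and none at 0, and their part in the level of Mmp2 was not tested. Mmp9 (chromosome 2, 164940780 to 164955850), which is known from leukocytes, had 3.97, 2.63 and 2.09 FPKM in the CON samples and 3.02, 2.24 and 3.00 FPKM in the T + E2 samples. The groups overlapped fully, and Mmp9 was not called (log2 fold change -0.03, standard error 0.24, adjusted p = 0.938 by edgeR).

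The membrane-type Mmps are anchored at the cell surface, and Mmp14 is the main activator of the Mmp2 precursor. Mmp14 (chromosome 14, 54431612 to 54441265) had 9.49, 7.08 and 7.05 FPKM in the CON samples and 8.76, 9.31 and 9.54 FPKM in the T + E2 samples. CON replicate 1 lay among the T + E2 samples, and Mmp14 was not called (log2 fold change 0.26, standard error 0.13, adjusted p = 0.179 by edgeR). Without CON replicate 1 the log2 fold change was 0.41 with an adjusted p of 0.0279 by edgeR. The adjusted p over all alternatives ranged from 0.0279 to 0.541. Mmp15 was the most abundant of the membrane-type Mmps, with 26.9 ± 3.23 FPKM in the CON group and 22.5 ± 4.27 FPKM in the T + E2 group (SD, n = 3 in each), and was not called (log2 fold change -0.23, standard error 0.14, adjusted p = 0.304 by edgeR). Mmp24 (chromosome 2, 155775342 to 155818366), best known from the nervous system, was a downregulated DEG of low level. It had 0.368, 0.245 and 0.252 FPKM in the CON samples and 0.0267, 0.0854 and 0.136 FPKM in the T + E2 samples, which rest on 27, 18 and 20 counts against 2, 7 and 10. All T + E2 samples were lower, and the log2 fold change was -1.75 with a standard error of 0.47 (adjusted p = 0.0368 by edgeR). In the 6 fits that left out 1 library the log2 fold change stayed at -2.26 to -1.36, but the call was lost in all except that without T + E2 replicate 3 (adjusted p from 0.0329 to 0.107 by edgeR), and DESeq2 gave an adjusted p of 0.0595. Without both libraries with seminal vesicle transcripts the log2 fold change was -1.88 (adjusted p = 0.152 by edgeR). Mmp24 shares 637 exonic bases with BC029722 on the opposite strand, which had 685, 673 and 820 counts in the CON libraries and 600, 602 and 573 in the T + E2 libraries, and the counting is not stated to use the strand. Of the remaining membrane-type Mmps, Mmp16 and Mmp17 were tested and not called, and Mmp25 had too few counts (1 to 8 in each library). The groups of Mmp17 did not overlap (log2 fold change -0.63, standard error 0.19, adjusted p = 0.0548 by edgeR), values given after they were seen. Mmp17 was called with total-count scaling, among genes with an FPKM of at least 1 and without CON replicate 1.

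The collagenases cut fibrillar collagen across the triple helix. None of the 4 in the table could be tested. Mmp1a and Mmp1b had no counts, and their transcripts are 90.6% identical over 1453 bases. Mmp13 had 16, 5 and 1 counts in the CON libraries and 4, 5 and 3 in the T + E2 libraries. Mmp8, the collagenase of neutrophils, had 2, 3 and 0 counts in the CON libraries and 0, 9 and 9 in the T + E2 libraries. Neutrophil markers were also low, with 5 of 5 at 0 in T + E2 replicate 1 and a sum of at most 5.24 CPM in any library. Only S100a9 could be tested, with 5, 15 and 12 counts in the CON libraries and 0, 51 and 27 in the T + E2 libraries. It was not called (log2 fold change 1.25, standard error 0.96, adjusted p = 0.392 by edgeR). In the same order S100a8 had 2, 0 and 2 against 0, 17 and 7 counts, and Retnlg 3, 9 and 11 against 0, 14 and 4. Ly6g had 0, 0 and 3 against 0, 1 and 0, and Mpo 0, 0 and 0 against 0, 3 and 0. The part of these cells in the counts of Mmp8 was not tested.

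Among the stromelysins, which cut proteoglycans and activate other Mmps, Mmp10 had no counts and Mmp3 had 6, 7 and 4 counts in the CON libraries against 3, 7 and 3 in the T + E2 libraries. Mmp11, a stromal stromelysin that is activated inside the cell by furin, had 1.09, 0.951 and 0.850 FPKM in the CON samples and 0.458, 0.643 and 0.652 FPKM in the T + E2 samples. The groups did not overlap, but Mmp11 was not called (log2 fold change -0.68, standard error 0.23, adjusted p = 0.0699 by edgeR). Over all alternatives its adjusted p ranged from 0.0525 to 0.209. Mmp11 shares 155 exonic bases with Chchd10 on the opposite strand. Of the other Mmps, Mmp19, Mmp23 and Mmp28 were tested and not called, and Mmp21 and Mmp27 had 0 to 4 counts in each library. No Mmp was higher in the T + E2 group by edgeR's main test, DESeq2 or limma, and 0 had an unadjusted p under 0.05 in that direction.

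None of the 15 tested Adamts proteases was called by edgeR's main test, DESeq2 or limma. At an unadjusted p under 0.05, 2 were higher (Adamts1 and Adamts2) and 2 lower (Adamts16 and Adamts20), the last pair named here after their values were seen. The share of all tested genes at an unadjusted p under 0.05 was not taken, here or for the other families and the markers. Adamts16 had 11, 18 and 18 counts in the CON libraries and 8, 2 and 0 in the T + E2 libraries. Its groups did not overlap, and it was not called (log2 fold change -2.17, standard error 0.75, adjusted p = 0.0792 by edgeR). Without T + E2 replicate 1 Adamts16 was called lower. The proteoglycan-cleaving members act on aggrecan and versican. Adamts1 (chromosome 16, 85793827 to 85803113) was the most abundant Adamts gene, with 3.35, 3.55 and 3.30 FPKM in the CON samples and 3.12, 4.71 and 5.26 FPKM in the T + E2 samples. T + E2 replicate 1 lay below the CON samples and the other T + E2 samples above them (log2 fold change 0.39, standard error 0.17, adjusted p = 0.139 by edgeR). Without T + E2 replicate 1 the log2 fold change was 0.57 with an adjusted p of 0.0157 by edgeR, and over all alternatives the adjusted p ranged from 0.0157 to 0.404. Adamts8 had 2.65 ± 0.602 FPKM in the CON group and 3.53 ± 0.634 FPKM in the T + E2 group (SD, n = 3 in each; log2 fold change 0.45, standard error 0.20, adjusted p = 0.153 by edgeR). It shares 489 exonic bases with Gm29724 on the opposite strand. Adamts5 had 1.24 ± 0.365 and 1.18 ± 0.222 FPKM in the same order (log2 fold change -0.03, standard error 0.23, adjusted p = 0.95 by edgeR). Adamts4 had 19, 8 and 7 counts in the CON libraries and 7, 6 and 9 in the T + E2 libraries, too few for the test.

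The procollagen N-propeptidases Adamts2, Adamts3 and Adamts14 trim the amino end of fibrillar procollagens, a step before fibrils form. All 3 had a positive log2 fold change, from 0.25 to 0.68, and none was called. Adamts2 (chromosome 11, 50602084 to 50807573) had 2.15, 2.60 and 2.28 FPKM in the CON samples and 3.20, 2.74 and 3.01 FPKM in the T + E2 samples. Its groups did not overlap, and its log2 fold change was 0.39 (standard error 0.12, adjusted p = 0.0519 by edgeR). The adjusted p ranged from 0.0489 to 0.156 over the alternatives, and the lowest came from the test restricted to genes above an FPKM of 1. Adamts7 and Adamts12, which cut cartilage oligomeric matrix protein, were not called either. Adamts13, which cuts von Willebrand factor and is made mainly in the liver, had no count in any library.

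Among the Adamts-like proteins, which bind fibrillin microfibrils and have no protease activity, 2 of 5 were lower. Adamtsl4 (chromosome 3, 95676201 to 95687917) was the most abundant in the CON group, with 2.24, 2.97 and 2.52 FPKM in the CON samples and 1.37, 1.40 and 1.63 FPKM in the T + E2 samples. All T + E2 samples were lower, and the mean fell from 2.58 ± 0.368 to 1.47 ± 0.139 FPKM (SD, n = 3 in each group), and the log2 fold change was -0.78 with a standard error of 0.15 (adjusted p = 0.00876 by edgeR). Adamtsl3 (chromosome 7, 82335694 to 82614450) had 0.650, 0.490 and 0.505 FPKM in the CON samples and 0.122, 0.0929 and 0.256 FPKM in the T + E2 samples. This is a downregulated DEG with groups that did not overlap (log2 fold change -1.78, standard error 0.36, adjusted p = 0.0118 by edgeR). Both genes kept an adjusted p under 0.05 in each of the 6 fits that left out 1 library. Without both libraries with seminal vesicle transcripts, 2 samples stood against 2, and the log2 fold changes were -0.64 for Adamtsl4 (adjusted p = 0.0873) and -1.58 for Adamtsl3 (adjusted p = 0.0657), both by edgeR. Adamtsl1, at 1.83 ± 0.324 FPKM in the CON group and 1.87 ± 0.372 FPKM in the T + E2 group (SD, n = 3 in each), was not called (log2 fold change 0.07, standard error 0.17, adjusted p = 0.795 by edgeR). Adamtsl5 was not called either (log2 fold change -0.26, standard error 0.20, adjusted p = 0.394 by edgeR).

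All 4 inhibitors were expressed and tested, and 1 of them was higher in the T + E2 group. Timp2, which inhibits most Mmps and also takes part in the activation of Mmp2 by Mmp14, was the most abundant, with 96.7, 95.8 and 87.0 FPKM in the CON samples and 80.2, 92.8 and 110.4 FPKM in the T + E2 samples. The T + E2 samples lay on both sides of the CON samples (log2 fold change 0.06, standard error 0.12, adjusted p = 0.773 by edgeR). Timp4 (chromosome 6, 115241892 to 115252205), the inhibitor with the most restricted tissue distribution, had 20.3, 26.1 and 15.9 FPKM in the CON samples and 29.4, 31.1 and 35.1 FPKM in the T + E2 samples. All T + E2 samples were higher, and the mean rose from 20.8 ± 5.14 to 31.9 ± 2.94 FPKM (SD, n = 3 in each group), and the log2 fold change was 0.66 with a standard error of 0.16 (adjusted p = 0.0252 by edgeR). Of the 6 fits that left out 1 library, only that without CON replicate 2 kept an adjusted p under 0.05 (log2 fold change 0.85, adjusted p = 0.00734 by edgeR), and the others gave 0.51 to 0.69 with an adjusted p of 0.0537 to 0.0696. Without both libraries with seminal vesicle transcripts the log2 fold change was 0.87 (adjusted p = 0.0211 by edgeR). Timp4 lies within Syn2 and shares 90 exonic bases with it on the opposite strand. Syn2, a synaptic vesicle gene, was also higher in each T + E2 library, with 547, 522 and 343 counts in the CON libraries and 854, 943 and 779 in the T + E2 libraries, and its part in the counts of Timp4 was not tested.

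Timp3, which stays bound to the matrix and also inhibits several Adamts and Adam proteases, had 26.6, 28.6 and 25.5 FPKM in the CON samples and 21.7, 26.8 and 23.9 FPKM in the T + E2 samples. The groups overlapped, and Timp3 was not called (log2 fold change -0.12, standard error 0.10, adjusted p = 0.428 by edgeR). It shares 1733 exonic bases with Syn3 on the opposite strand. Timp1, the inhibitor most often raised in injured tissue, was the least abundant, with 5.17, 3.75 and 3.16 FPKM in the CON samples and 5.73, 4.58 and 5.07 FPKM in the T + E2 samples. CON replicate 1 lay among the T + E2 samples (log2 fold change 0.39, standard error 0.22, adjusted p = 0.247 by edgeR). No Timp was lower by edgeR, DESeq2 or limma, and 0 had an unadjusted p under 0.05 in that direction.

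Summed levels show how far the balance of protease and inhibitor transcripts rests on 1 gene. Mmp7 made up 92.8 to 97.1% of the summed FPKM of all 23 Mmps in each sample. The ratio of summed Mmp to summed Timp FPKM was 14.1, 9.43 and 14.2 in the CON samples and 4.66, 7.18 and 4.81 in the T + E2 samples, so every T + E2 sample was lower. With Mmp7 left out, the Mmp sum was 61.3 ± 1.30 FPKM in the CON group and 50.5 ± 5.39 FPKM in the T + E2 group (SD, n = 3 in each), and its ratio to the Timps was 0.403, 0.405 and 0.467 in the CON samples and 0.338, 0.312 and 0.324 in the T + E2 samples. The groups were apart here as well, though by less. In this sum the means of Mmp2 (14.7 to 8.90 FPKM) and of Mmp15 (26.9 to 22.5 FPKM), which was not called, fell most. The Timp sum itself overlapped between the groups, at 145 ± 11.9 FPKM in the CON group and 156 ± 18.7 FPKM in the T + E2 group. Timp2 over Mmp2, an inhibitor and a protease that meet on the cell surface, stood at 6.63, 6.43 and 6.01 in the CON samples and at 8.76, 11.7 and 11.5 in the T + E2 samples. Mean Timp2 was 93.2 FPKM in the CON group and 94.5 FPKM in the T + E2 group, so this ratio mostly restates the lower Mmp2. The sums of the Adamts genes were 16.1 to 17.6 FPKM in the CON samples and 18.8 to 19.95 FPKM in the T + E2 samples, and those of the Adamtsl genes 5.58 to 6.88 and 3.91 to 4.90 FPKM. These sums are descriptions of transcripts with no test, and neither precursors nor activity were measured.

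**Figure D4:**
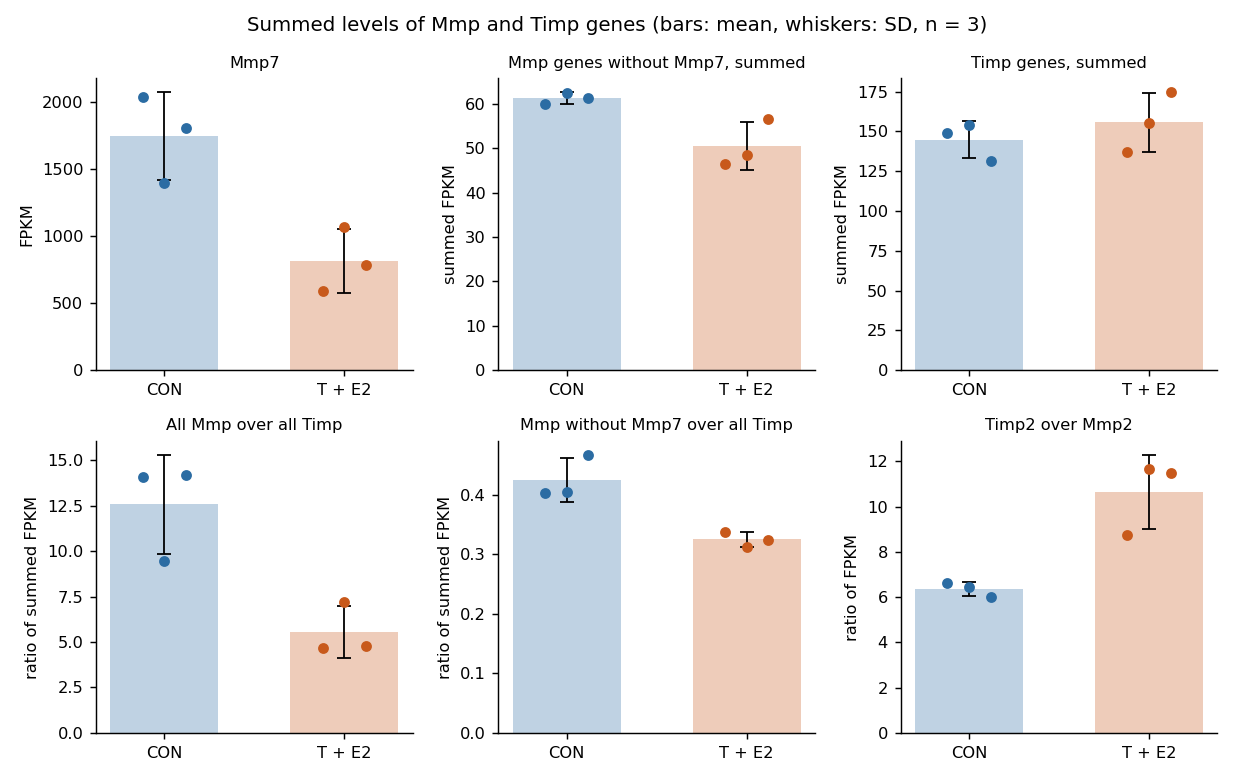
Levels and ratios in the 3 CON (blue) and 3 T + E2 (orange) samples, with bars for the mean, whiskers for the SD and points for the samples. Mmp7 and the ratio of all Mmps to all Timps were lower in each T + E2 sample than in each CON sample (4.66 to 7.18 against 9.43 to 14.2), the Timp sum overlapped, and Timp2 over Mmp2 was higher (8.76 to 11.7 against 6.01 to 6.63).

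A list of 42 further genes of this pathway (regulators, related proteases and substrates) was examined beside the members. Of these, 35 could be tested, 8 were higher and 3 lower by edgeR, which is 22.9% and 8.57% of those tested against 10.4% and 9.25% of all tested genes, and the median log2 fold change was 0.18. Among the regulators, Bsg encodes basigin or EMMPRIN, a surface protein known for inducing Mmps in neighbouring stroma. It had 88.2, 109.0 and 107.2 FPKM in the CON samples and 374, 362 and 298 FPKM in the T + E2 samples. The groups were far apart. Here the log2 fold change was 1.80 with a standard error of 0.14 (adjusted p = 0.00016 by edgeR), and in each of the 15 alternatives it was at least 1.71. Papln, which encodes papilin, a matrix protein related to the Adamts family, had 2.22, 1.78 and 1.78 FPKM in the CON samples and 7.04, 5.24 and 6.52 FPKM in the T + E2 samples (log2 fold change 1.74, standard error 0.15, adjusted p = 0.000242 by edgeR). Furin, the convertase that cuts the precursors of Mmp11, of the membrane-type Mmps and of Adamts proteases, rose by 0.57 (log2) with a standard error of 0.10 (adjusted p = 0.00615 by edgeR). Reck, a membrane-bound Mmp inhibitor, fell by 0.56 on the log2 scale (adjusted p = 0.0215 by edgeR) and is named after its values were seen. Also named after their values were seen are the related proteases Adam15 and Adam17. Both were higher (log2 fold changes 0.44 and 0.34, adjusted p = 0.0104 and 0.0498 by edgeR).

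Of the substrates and matrix partners, Vcan, the proteoglycan versican that Adamts proteases cut, had 1.45, 1.42 and 1.13 FPKM in the CON samples and 2.27, 2.87 and 2.21 FPKM in the T + E2 samples (log2 fold change 0.92, standard error 0.14, adjusted p = 0.003 by edgeR). Fmod encodes fibromodulin, a small proteoglycan of collagen fibrils. It had 17.0, 20.9 and 20.3 FPKM in the CON samples and 7.69, 6.15 and 7.69 FPKM in the T + E2 samples, and was the one downregulated DEG of the list (log2 fold change -1.40, standard error 0.13, adjusted p = 0.000371 by edgeR). Thbs2, a thrombospondin that helps to clear Mmp2 from the cell surface, changed by -0.90 (adjusted p = 0.0188 by edgeR). Lox, the enzyme that crosslinks collagen and elastin, changed by 0.75 (adjusted p = 0.0326) and Vwf, the substrate of Adamts13, by 0.65 (adjusted p = 0.0233), both by edgeR. The calls of Thbs2, Lox and Vwf were lost without both libraries with seminal vesicle transcripts (adjusted p = 0.0528, 0.144 and 0.0915 by edgeR), with 2 samples against 2 and log2 fold changes of -1.08, 0.62 and 0.74, and 4 higher genes and 2 lower ones of the list were then called. Endothelial markers, beside Vwf, summed to 70.1 to 99.5 CPM in the CON group and 88.0 to 113.5 CPM in the T + E2 group, with 0 of 4 called by edgeR, DESeq2 or limma and 0 at an unadjusted p under 0.05.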

How the data were processed

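RNA of prostate tissue from 6 mice was sequenced as paired-end libraries, and the authors deposited 1 table of 34745 genes with whole-number counts per gene and with FPKM values, scaled by the authors to gene length and depth. The submitters' processing notes name TopHat, Bowtie2 and HTSeq, and whether counting used the strand is not given in the sources used here. Groups were taken from the sample labels. All 51 members were found in GENCODE M21 (GRCm38), 33 with the same start and end.

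Deposited counts were analysed with edgeR 4.0.16 (filterByExpr with a minimum count of 10 and a minimum total of 15, TMM scaling, quasi-likelihood test) on all 15580 tested genes, with Benjamini-Hochberg adjustment over all of them. Standard errors were derived from the F statistic (log2 fold change over its root). The procedure was tested on simulated data. The total counts per library (14816146 to 16555549) make 3 counts, taken as the detection limit, worth 0.181 to 0.202 CPM. This limit and the interval given for Mmp20 cover counting error only. Alternatives were DESeq2 1.42.0, limma 3.58.1 with a pseudocount of 0.1 or 1 on log2 FPKM (genes reaching 0.1 FPKM in 3 or more samples), other scalings, no filter, a filter at an FPKM of 1, a block for the replicate number, each library left out, and, added after seeing the data, both libraries with seminal vesicle transcripts left out. Promoters came from RefSeq, and similar transcripts were sought with BLAST+ 2.17.0+ (at least 90% identity over 500 bases).

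The genes named are the called members, a list of Timps, Mmps and Adamts of known roles, the 3 most abundant members of each family, and up to 8 called pathway genes with the largest change. The members, the pathway list and the marker lists were chosen with earlier results of these data known. The result of 1 marker list is not reported here.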

Additional observations from a re-analysis of the deposited data

How the results depend on the processing

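Mmp2 and Mmp7 were called in each of the 15 alternatives. With median-of-ratios scaling and with no filter on low counts the same 7 members were called, with total-count scaling also Mmp17, and DESeq2 lost Mmp24. Among the members, downregulated DEGs numbered 1 instead of 4 among genes with an FPKM of at least 1 and 1 with limma on log2(FPKM + 1), a scale that understates the change of low genes, and 2 without both libraries that held seminal vesicle transcripts. Members called lower were 3 instead of 6 without these libraries, where 2 samples stood against 2. Members called higher were 2 instead of 1 among genes with an FPKM of at least 1, which added Adamts2, and 0 with limma on log2(FPKM + 0.1). Of the pathway list, 5 genes instead of 8 were called higher with limma on either scale and 4 without both libraries. When each library was left out in turn, downregulated DEGs among members ranged from 2 to 4, members called higher from 0 to 1, members called lower from 4 to 6, and pathway genes called higher from 5 to 7 and lower from 1 to 3. The lowest values came without CON replicate 1 (2 DEGs), without T + E2 replicate 2 (2 DEGs, 4 lower, 0 higher) and without T + E2 replicate 1 (1 lower pathway gene). Without CON replicate 3 and without T + E2 replicate 3, 0 members were called higher. The called genes were not the same throughout. Without CON replicate 1, Mmp24 and Timp4 were lost, Mmp14 was called higher and Mmp17 lower. Leaving out T + E2 replicate 1 lost the same genes, with Adamts1 called higher and Adamts16 lower. Except where the construction is named, the cause was not tested.

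Among the genes followed by name and not called, the sign of the log2 fold change turned for 4 when single libraries were left out, over ranges of -0.18 to 0.23 for Adamts5 (higher without CON replicate 1 and, at 0.10, T + E2 replicate 3), -0.063 to 0.21 for Adamtsl1 (lower without T + E2 replicate 3 and, at -0.06, CON replicate 3), -0.21 to 0.26 for Mmp9 (higher without CON replicate 1 and, at 0.10, T + E2 replicate 2) and -0.051 to 0.14 for Timp2 (lower without T + E2 replicate 3). Mmp9 also turned, to 0.030, without both libraries with seminal vesicle transcripts. The sample labels do not say that replicate numbers pair the mice. Deviations of samples with the same number correlated at -0.05, 0.03 and 0.05, and those with different numbers at -0.18 to 0.14. These values cannot settle whether samples with the same number were handled together, and both libraries with seminal vesicle transcripts carry the number 2. With a replicate block 5 members were called lower, 1 higher and 3 as downregulated DEGs, and Mmp24 was lost (adjusted p = 0.0864 by edgeR). Members with under 3 counts in a library cannot be told from absent at this depth. With 3 mice in each group small changes of the Adamts genes, and larger ones at low counts, could be missed.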
